A study of Homo sapiens with 32 samples.

Results

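The genes described here encode the proteins of the human cytosolic ribosome. They were chosen by symbol, as the gene entries named RPL or RPS with a number (and an A or X where the symbol carries one) together with RPLP0, RPLP1, RPLP2 and RPSA, with at least 100 counts summed over all libraries. Of 32738 gene entries in the deposited count table, 77 matched by symbol and 76 reached that minimum, 46 of the large subunit and 30 of the small subunit. The members nearest above the minimum were RPL36A with 565, RPS28 with 811 and RPL26 with 972 counts. The libraries came from HEK293 cells, an established line grown from human embryonic kidney, that were incubated with 4-thiouracil, a uracil analogue that cells can build into new RNA, for 0, 5, 15 or 30 min. Each time had 2 cultures (the biological replicates of the labels), each culture 2 cDNA preparations and each preparation 2 libraries of polyadenylated RNA. What the cells at 0 min received and whether tagged RNA was purified are not stated in the labels. The time of incubation is the only treatment that differs between groups in the labels. The tagmentation numbers of the libraries also differ: at 0 min both libraries of a cDNA share a number, and at later times they carry different ones. In the comparisons with 0 min this layout cannot be told apart from time.

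A ribosome pairs a small subunit, which reads the mRNA, with a large subunit, which joins amino acids, and each ribosomal protein is built in at a fixed place on the ribosomal RNA. Cells therefore need these proteins in matched amounts, and the mRNAs that encode them are abundant and stable in growing cells. Most of these mRNAs begin with a terminal oligopyrimidine (TOP) tract, a C followed by an unbroken run of C and T at the start of the transcript, through which LARP1 and the mTOR kinase control their translation. Because the proteins are encoded by many separate genes, the level of each mRNA can be followed on its own.

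The start of the transcript is the sequence that these genes share, and the windows below show it for members with large, small or late changes described further on. Each holds 15 bases before the RefSeq start and the first 15 bases of the transcript, read 5′ to 3′ on the strand of the gene in GRCh38.p14, and capitals mark the run of pyrimidines from the first transcribed base. The first 4 belong to members with large falls after 5 min.
RPL3: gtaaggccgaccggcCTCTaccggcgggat
RPS6: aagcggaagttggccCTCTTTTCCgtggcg
RPLP0: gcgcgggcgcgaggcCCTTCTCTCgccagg
RPL39: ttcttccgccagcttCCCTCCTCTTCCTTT
These lie at chr22:39319609-39319638, chr9:19380222-19380251, chr12:120201097-120201126 and chrX:119791616-119791645, all on the minus strand. The next 4 belong to members with small falls after 5 min.
RPS27: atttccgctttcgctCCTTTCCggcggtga
RPS21: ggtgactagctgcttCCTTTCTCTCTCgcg
RPL11: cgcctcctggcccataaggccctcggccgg
RPLP2: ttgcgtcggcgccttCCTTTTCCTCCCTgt
These lie at chr1:153990747-153990776, chr20:62387088-62387117, chr1:23691764-23691793 and chr11:809952-809981, all on the plus strand. The last pair are members whose levels were low but whose falls at 30 min against 0 min were among the smallest.
RPL10A: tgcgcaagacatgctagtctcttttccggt
RPL12: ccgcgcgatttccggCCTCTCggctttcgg
RPL10A lies at chr6:35468386-35468415 on the plus strand and RPL12 at chr9:127451392-127451421 on the minus strand. Both the members with large and the members with small falls included genes with a long tract. RPL9, whose fall after 5 min was also among the largest, is not shown. It had no pyrimidine at the annotated first base but held a run of 5 or more that began within 5 bases of it. RPL11 and RPL10A had no pyrimidine at the annotated first base, but both held a run of 5 or more pyrimidines that began within 5 bases of it, and the run of RPL3 ended after 4 bases.

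The 8 cultures held 776871 to 1396056 counts, of which 87695 to 219204 fell on the ribosomal protein genes. Libraries that share a cDNA differed by less than the sampling noise in each of 16 pairs, with a chi-square of 0.327 to 0.594 per degree of freedom. Libraries of different cDNA from the same culture differed by more than that noise, at 1.14 to 2.29 in 32 pairs. Because the 4 libraries of a culture share their cells, a culture entered as 1 sample, their sum. All 8 marker genes listed for HEK293 cells and found in the table had counts, with VIM at 2814 and LIN28B at 1122. The lowest were PAX2 at 5 and SOX11 at 8, fewer than COL1A1 with 16 in the list that follows. Of 12 genes in the table that mark blood, vessel, connective tissue or liver cells, 7 were at 0 in every culture, PTPRC, HBB and ALB among them, and the other 5 had 89 counts in all. Their summed level was 2.94 to 4.93 CPM (counts scaled to a fixed library total) at 0 min and 14.3 to 18.6 CPM at 30 min, with APOA1 holding 62 of the 89 counts. Their part in the results was not tested.

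Counts on the ribosomal protein genes took a falling share of the library. In the cultures at 0 min they held 18.01% and 20.15% of all counts, after 5 min 11.3% and 9.81%, after 15 min 9.58% and 11.4%, and after 30 min 7.83% and 7.27%. The mean share was 19.1% ± 1.52 (SD, n = 2) at 0 min and 7.55% ± 0.398 (SD, n = 2) at 30 min. Every later culture lay below both cultures at 0 min, the cultures at 5 and 15 min overlapped, and both at 30 min lay below all others.

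Both subunits held a smaller share at each later time than at 0 min. The large subunit genes began at 12.1% ± 0.938 (SD, n = 2) of all counts and held 6.68% ± 0.554 after 5 min, 6.66% ± 0.846 after 15 min and 4.77% ± 0.209 after 30 min. The small subunit genes held 7.00% ± 0.577, 3.87% ± 0.489, 3.83% ± 0.449 and 2.77% ± 0.189 at the same times. The log2 ratio of large to small subunit counts, which does not depend on scaling between cultures, was 0.79 ± 0.0068 (SD, n = 2) before incubation, 0.79 ± 0.063 after 5 min, 0.80 ± 0.015 after 15 min and 0.78 ± 0.035 after 30 min. These means differed by less than the spread between the cultures at 5 min. Leaving out the 5 members with most counts, the ratio was 0.38 at 0 min and 0.51, 0.48 and 0.51 later, with both cultures at 0 min below every later culture. Those 5 members were RPL8, RPL35, RPLP0, RPS29 and RPL23, of which RPS29 alone belongs to the small subunit. They took 23.7% of the ribosomal protein counts in both cultures at 0 min and 18.6% to 22.0% in the later cultures.

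**Figure D1:**
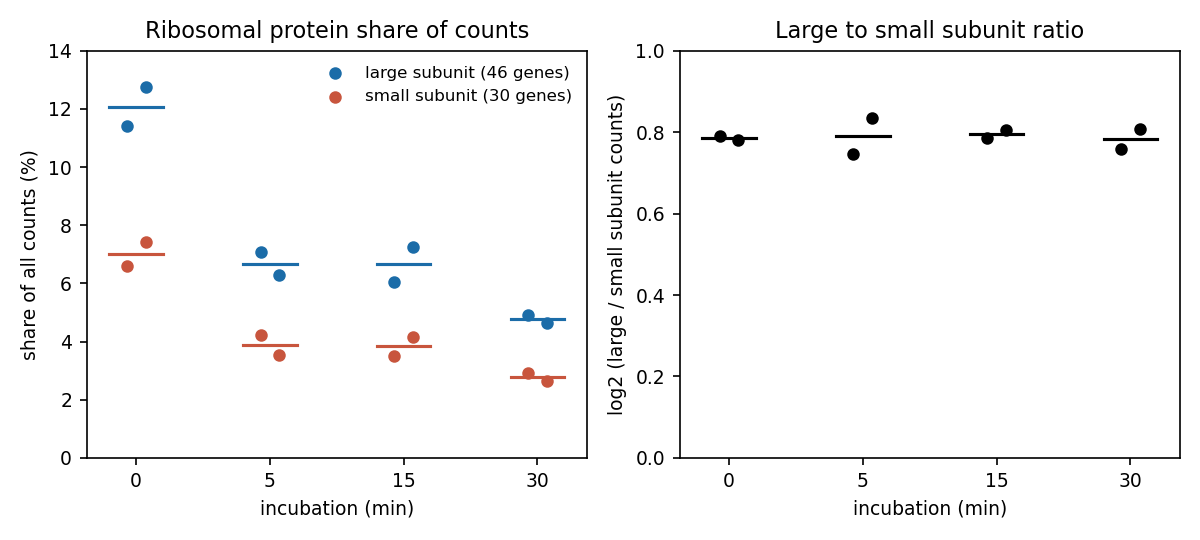
Left, share of all counts (%) on the 46 large and 30 small subunit genes against incubation in min; right, log2 ratio of large to small subunit counts. Points are the 2 cultures of each time and bars their mean; the shares fell from 12.1% and 7.00% at 0 min to 4.77% and 2.77% at 30 min while the ratio stayed between 0.75 and 0.84.

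After 5 min, nearly all ribosomal protein genes stood lower than at 0 min. By edgeR's quasi-likelihood test with TMM scaling and Benjamini-Hochberg adjustment over all 10439 genes tested, at a threshold of 0.05, 74 of 76 members fell and 0 rose, against 26.0% of all genes lower and 28.7% higher. TMM scaling sets the bulk of genes level, so these are changes relative to that bulk and not amounts per cell. Fewer cells with an mRNA and less of it per cell cannot be told apart. Because it is not stated whether tagged RNA was purified, neither can a change in which RNA was sampled. The median log2 fold change over members was -1.48, beside 0.10 over all genes. It was -1.46 for the large subunit, where 45 of 46 fell, and -1.49 for the small subunit, where 29 of 30 fell. RPL7 and RPS27 were the members that did not pass. Scaled to total counts alone, which moves the median of all genes to 0.83, 54 members were lower and 1 was higher.

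The members with most counts in each subunit show the size of the fall in every culture. Levels are TMM-scaled CPM, which are not corrected for transcript length and so are not compared between genes. RPL8, a core protein of the large subunit that lies on its ribosomal RNA, stood at 17365 and 21272 CPM in the cultures at 0 min, 4872 and 5156 after 5 min, 4545 and 6057 after 15 min, and 3358 and 3005 after 30 min. Its cultures at 0 min lay above all later ones and those at 30 min below all others, and its log2 fold change at 5 min was -1.95 (SE 0.216, adjusted p = 2.26e-09). RPL35, which sits beside the exit of the peptide tunnel, stood at 14664 and 18039 CPM at 0 min, 5423 and 4644 after 5 min, 4218 and 5547 after 15 min, and 3062 and 2476 after 30 min. It fell by 1.70 at 5 min and by 2.56 at 30 min on the log2 scale (adjusted p = 3.29e-08 and 9.44e-12).

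RPLP0, the base of the stalk that recruits translation factors, had a lower log2 fold change than both. It stood at 12757 and 14942 CPM at 0 min, 2803 and 3005 after 5 min, 3066 and 3672 after 15 min, and 1982 and 2008 after 30 min. The cultures at 30 min lay below all others and those at 15 min just above those at 5 min. Its log2 fold change was -2.25 (SE 0.207, adjusted p = 4.54e-11) at 5 min and -2.80 (SE 0.211, adjusted p = 5.99e-13) at 30 min. The partners it binds in the stalk had smaller falls, RPLP1 by 1.03 and RPLP2 by 0.86 at 5 min on the log2 scale (adjusted p = 4.32e-05 and 0.000431). The difference between these partners and RPLP0 was tested only through each one's distance from the typical member, given below.

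In the small subunit the most counted members were RPS29, RPS23 and RPS14. RPS29, a zinc-binding protein of the head of the subunit, stood at 9424 and 10984 CPM at 0 min, 4272 and 3135 after 5 min, 3169 and 4087 after 15 min, and 2372 and 1858 after 30 min. RPS23, which lies near the decoding site, stood at 9502 and 11746 CPM at 0 min, 2978 and 2588 after 5 min, 2339 and 3245 after 15 min, and 1991 and 1666 after 30 min. RPS14, a protein of the platform, stood at 6210 and 7975 CPM at 0 min, 2256 and 2832 after 5 min, 2294 and 2790 after 15 min, and 1634 and 1665 after 30 min. In all 3 the cultures at 5 and 15 min overlapped, and the falls from 0 to 5 min were 1.46, 1.93 and 1.48 on the log2 scale (adjusted p = 4.49e-07, 1.88e-09 and 1.38e-07).

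**Figure D2:**
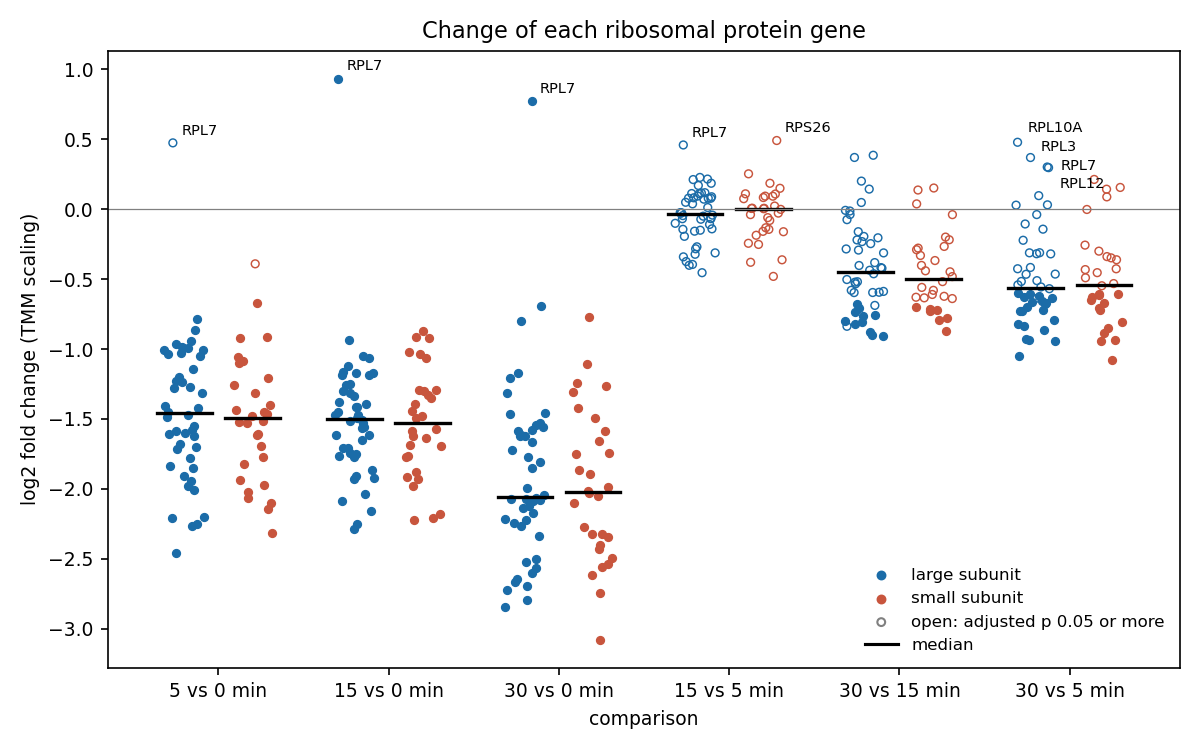
Log2 fold change (TMM scaling) of each of the 76 genes in 6 comparisons, large subunit in blue and small subunit in red. Filled points passed the test, open points did not, bars are medians, and named genes lie more than 1.5 interquartile ranges outside the quartiles; RPL7 stands above all others in the 3 comparisons with 0 min, and the medians of the subunits lie close together.

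The largest falls at 5 min were those of RPL3, RPS6, RPL9 and RPLP0. RPL3, a large protein that reaches towards the peptidyl transferase centre, stood at 2528 and 2697 CPM at 0 min, 612 and 349 after 5 min, 459 and 613 after 15 min, and 671 and 559 after 30 min. It had the lowest log2 fold change of all members at 5 min (-2.45, SE 0.219, adjusted p = 2.73e-11) and at 15 min (-2.29), and its later cultures overlapped at all 3 times. RPS6, the substrate of the S6 kinases, stood at 7292 and 8721 CPM at 0 min, 1710 and 1506 after 5 min, 1523 and 1902 after 15 min, and 1241 and 1150 after 30 min. Its log2 fold changes against 0 min were -2.32, -2.22 and -2.74 (adjusted p = 1.91e-11, 6.08e-11 and 5.53e-13).

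The smallest falls at 5 min were in RPS27, RPS21, RPL11 and RPLP2, after RPL7. RPS27, a zinc finger protein of the small subunit, stood at 2266 and 2570 CPM at 0 min, 2301 and 1393 after 5 min, 1139 and 1502 after 15 min, and 1094 and 952 after 30 min. The first culture at 5 min lay within the range at 0 min, and the second lay within the range at 15 min. Its log2 fold change at 5 min was -0.39 (SE 0.207, adjusted p = 0.111) and turned to 0.35 when scaled to total counts, and without the first culture at 5 min it was -0.76 and passed the test. At 15 and 30 min it had fallen by 0.87 and 1.24 (adjusted p = 0.000592 and 5.57e-06), which it did not pass when scaled to total counts (-0.10 and -0.36).

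RPS21, one of the shortest proteins of the small subunit, stood at 2043 and 2544 CPM at 0 min, 1568 and 1310 after 5 min, 1087 and 1150 after 15 min, and 729 and 633 after 30 min. Its cultures did not overlap between any of the 4 times. It fell by 0.67 at 5 min (adjusted p = 0.00249), a change that was 0.07 when scaled to total counts and that did not pass without the second culture at 0 min (-0.48) or without the second at 5 min (-0.53). RPL11, which with RPL5 and 5S ribosomal RNA binds the p53 regulator MDM2, stood at 2405 and 2930 CPM at 0 min, 1748 and 1347 after 5 min, 1118 and 1265 after 15 min, and 889 and 894 after 30 min. Its cultures were also ordered by time without overlap, and it fell by 0.79 at 5 min and by 1.58 at 30 min (adjusted p = 0.000602 and 1.27e-08), although the value at 5 min was -0.05 and did not pass when scaled to total counts. RPL5, its partner in that complex, fell by 1.55 at 5 min and by 2.17 at 30 min (adjusted p = 1.8e-08 and 1.8e-11).

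**Figure D3:**
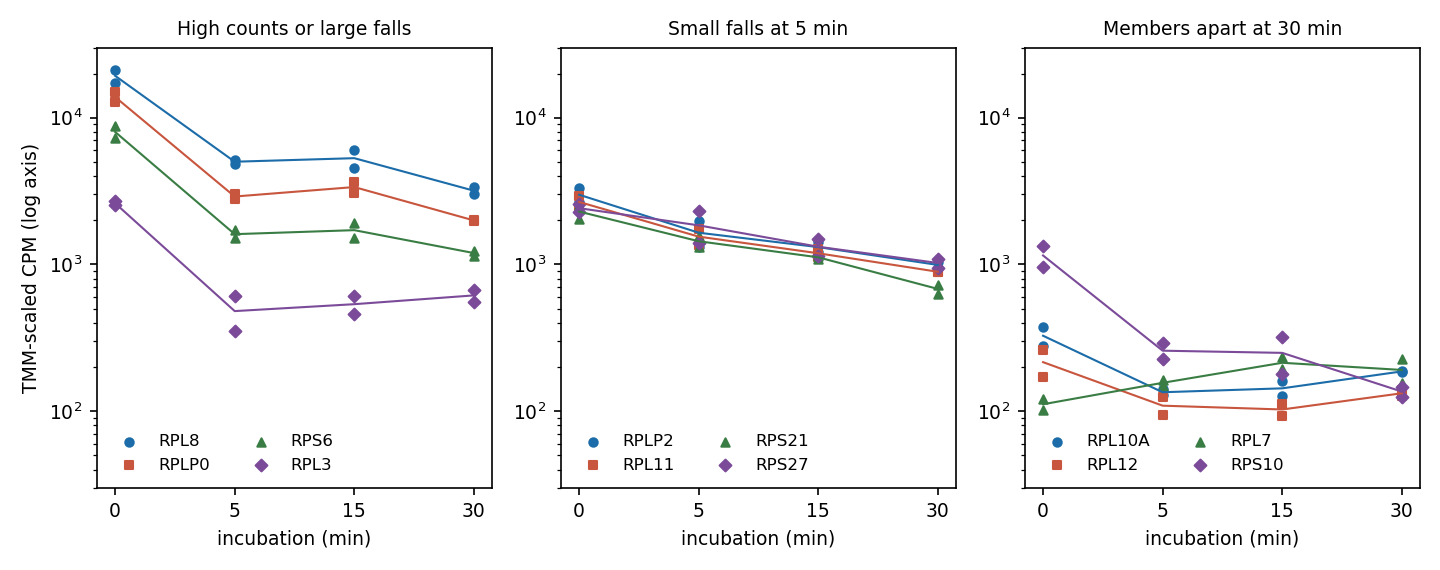
Level (TMM-scaled CPM, log axis) of 12 ribosomal protein genes against incubation in min; points are the 2 cultures of a time and lines join their means. RPL3 and RPS6 lay far below their 0 min level at 5 min, and RPS21 and RPL11 lay lower at each later time. RPL7 lay lowest at 0 min, and RPL10A and RPL12 stood higher at 30 min than at 15 min in both cultures.

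After 15 min, 75 of 76 members were lower than at 0 min, against 24.6% of all genes, and RPL7 alone was higher, against 29.8% of all genes. The median log2 fold change was -1.50 (0.19 over all genes), with -1.50 for the large and -1.53 for the small subunit. After 30 min the same counts were found, 75 lower against 23.8% of all genes and 1 higher against 32.1%, and the median was -2.04 (0.35 over all genes), with -2.05 for the large and -2.02 for the small subunit. These comparisons and the one at 5 min share the cultures at 0 min. Scaled to total counts, 63 members were lower at 15 min and 67 at 30 min.

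RPL7, a protein of the large subunit that binds ribosomal RNA, was the member that rose. It stood at 121 and 102 CPM at 0 min, 163 and 149 after 5 min, 193 and 235 after 15 min, and 156 and 226 after 30 min, from 66 to 367 counts a culture. Both cultures at 0 min lay below all later ones. Its log2 fold change was 0.47 (SE 0.219, adjusted p = 0.0675) at 5 min, 0.93 (SE 0.212, adjusted p = 0.000343) at 15 min and 0.77 (SE 0.212, adjusted p = 0.00245) at 30 min. The value at 30 min was 0.51 and did not pass without the second culture at 30 min, and the value at 5 min was 1.20 and passed when scaled to total counts. The share of ribosomal protein counts on RPL7, which needs no scaling, was 0.0388% ± 0.0096 (SD, n = 2) at 0 min and 0.307% ± 0.0976 at 30 min. That share would also grow for a gene that stayed level, since the ribosomal protein counts fell from 19.1% to 7.55% of all counts. RefSeq names 61 pseudogenes of RPL7. It names more for RPL21 (137), RPL23A (95), RPL7A (80), RPSA (74) and RPL31 (64), all of which were lower at 30 min than at 0 min. Across the 76 members, the number of pseudogene names and the change at 30 min against 0 min had a Spearman's rho of -0.02. How the counting divided reads between near-identical copies is not stated, so the level of RPL7 is uncertain. Whether pseudogenes bear on its rise was not tested.

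Several other members with few counts fell least by 30 min. RPL10A, which forms the L1 stalk of the large subunit, stood at 279 and 374 CPM at 0 min, 140 and 129 after 5 min, 127 and 159 after 15 min, and 186 and 187 after 30 min. RPL12 lies at the base of the other stalk, the one that recruits translation factors. It stood at 170 and 261 CPM at 0 min, 124 and 94.0 after 5 min, 93.1 and 112 after 15 min, and 139 and 126 after 30 min. In both genes the cultures at 30 min lay above those at 5 and 15 min and below those at 0 min. At 30 min against 0 min, RPL10A fell by 0.80 (adjusted p = 0.000422), though it was 0.08 higher when scaled to total counts, and RPL12 fell by 0.69 (adjusted p = 0.00568), though it was 0.19 higher on that scale. RPL12 did not pass without the second culture at 0 min (-0.34) or without the second at 30 min (-0.60). RPS28, a small protein near the exit of the mRNA channel, fell by 0.77 (SE 0.248, adjusted p = 0.00856). Its counts were 102 and 91 at 0 min, of 1217384 and 1022116 in those cultures. At 30 min they were 136 and 118, of 1396056 and 1343632, so its shares of all counts overlapped between these times.

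RPS10, a protein of the head of the small subunit that is marked with ubiquitin when ribosomes collide, had the lowest log2 fold change at 30 min. It stood at 961 and 1341 CPM at 0 min, 225 and 291 after 5 min, 180 and 319 after 15 min, and 147 and 125 after 30 min. The cultures at 30 min lay below all others, and its log2 fold change there was -3.08 (SE 0.226, adjusted p = 3.64e-13), 8.44-fold lower by the fit. The read-through entry RPS10-NUDT3, which shares sequence with RPS10, had 0 counts in both cultures at 0 min and 53 and 67 counts at 30 min, at least 32.7-fold higher as a share of all counts taking a floor of 3 counts summed over both cultures. RPS10 itself had 795 and 868 counts at 0 min and 244 and 204 at 30 min. RPL36A likewise shares sequence with a read-through entry, RPL36A-HNRNPH2, whose 1822 counts exceeded its own 565, so both are uncertain.

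Between 5 and 15 min no ribosomal protein gene changed by the test. The count was 0 lower and 0 higher of 76, against 0.517% of all genes lower and 1.03% higher, with 6 members at an unadjusted p under 0.05 and a median of -0.03. DESeq2 called 0 lower and 0 higher. RPL7 (0.46, adjusted p = 0.29) and RPS26, a protein at the mRNA exit of the small subunit (0.49, adjusted p = 0.259), lay outside the fences of 1.5 interquartile ranges. RPS26 stood at 248 and 304 CPM at 0 min, 100 and 93.3 after 5 min, 144 and 127 after 15 min, and 98.5 and 106 after 30 min. Its cultures at 15 min lay between those at 0 min and those at 5 and 30 min.

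Between 15 and 30 min 18 members fell and 0 rose, 11 of the large and 7 of the small subunit, against 2.78% of all genes lower and 2.26% higher. The median was -0.47 (-0.01 over all genes). The largest of these falls were in RPL22, an RNA-binding protein of the large subunit, by 0.90, in RPL36 by 0.90 and in RPL30 by 0.88 on the log2 scale (adjusted p = 0.00397, 0.0037 and 0.00717). The count changed when a culture was left out, which leaves its time without a replicate. The median was then -0.52 without the first and -0.44 without the second culture at 30 min. It was -0.66 without the first and -0.30 without the second at 15 min.

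Over the longer step from 5 to 30 min, 35 members fell and 0 rose, 21 of the large and 14 of the small subunit, against 6.52% of all genes lower and 5.88% higher. The median was -0.55 (-0.03 over all genes), with -0.56 for the large and -0.54 for the small subunit. RPS21 fell by 1.08 (SE 0.188, adjusted p = 0.000148) and RPL22 by 1.05 (SE 0.199, adjusted p = 0.000437), the lowest values, and RPS19, which matures the small subunit and is mutated in Diamond-Blackfan anaemia, fell by 0.95 (SE 0.191, adjusted p = 0.000899). At the other end RPL10A (0.48, adjusted p = 0.102), RPL3 (0.37, adjusted p = 0.281), RPL12 (0.30, adjusted p = 0.406) and RPL7 (0.30, adjusted p = 0.359) lay above the fences and did not pass. The count was 9 without the first culture at 5 min, 11 without the first at 30 min and 3 without the second at 30 min, and RPL3 passed without the first culture at 5 min (0.81).

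Over the 4 times, the mean level was highest at 0 min in 75 members, against 36.7% of all genes, and lowest at 30 min in 63, against 20.2%. The members lowest at 5 min were RPL3, RPL10, RPL10A, RPL15, RPS2, RPS26 and RPS28. Those lowest at 15 min included RPL4, RPL12, RPL13A and RPS9. RPL7 was lowest at 0 min and highest at 15 min.

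To ask which members departed from the rest, the fit was repeated with cultures scaled so that the typical ribosomal protein gene stays level, by the median of ratios over the 76 members. On that scale 36 members differed from the typical one at 5 min against 0 min (17 lower, 19 higher), 27 at 15 min (17 lower, 10 higher) and 43 at 30 min (20 lower, 23 higher). The shares of all genes past the same test were 62.0%, 65.8% and 80.2%, since most genes moved against the members, and the adjustment is therefore lenient here. At an adjusted p under 0.001, a limit set after the data were seen, the counts were 21, 12 and 25, against 43.6%, 47.2% and 63.0% of all genes. Members apart from the typical one were found in both subunits, 14 of the large and 7 of the small at 5 min and 15 and 10 at 30 min by that stricter limit.

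The order of members changed with time on this scale. RPL3 stood at -0.95 (SE 0.17, adjusted p = 7.14e-07) at 5 min and at -0.08 (SE 0.166, adjusted p = 0.674) at 30 min, and its difference between those times was 0.88 (SE 0.17, adjusted p = 5.99e-05). RPL10A went the same way, from 0.25 (SE 0.251) to 1.22 (SE 0.246), with a difference of 0.97 between the times (adjusted p = 0.00346). RPS21 went down, from 0.85 (SE 0.143) to 0.27 (SE 0.143), a difference of -0.58 (adjusted p = 0.00214). In all, 16 members differed from the typical one between 5 and 30 min, 8 lower and 8 higher, against 14.1% of all genes. That count was 9 without the first culture at 5 min, 10 without the first at 30 min, 2 without the second at 30 min and 1 at the stricter limit, where RPL3 was the one and 4.29% of all genes passed.

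Other members stood on 1 side of the typical one at all 3 times. RPS6 stood at -0.80, -0.69 and -0.72 at 5, 15 and 30 min, and RPL39, a small protein that lines the peptide tunnel, stood at -0.70, -0.64 and -0.83. RPS27 stood above the typical member by 1.11, 0.66 and 0.77 (adjusted p = 2.46e-11, 2.13e-05 and 6.09e-07). In the stalk RPLP0 stood at -0.73, -0.50 and -0.78, while RPLP1 stood at 0.50, 0.38 and 0.18 and RPLP2 at 0.65, 0.36 and 0.43. RPLP0 lay below and RPLP2 above the typical member with adjusted p under the threshold at all 3 times, and RPLP1 did at 5 and 15 min.

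Members not told apart from the typical one by the test show the common course. RPS3, which lines the mRNA entry channel, averaged 4152 ± 541 CPM (SD, n = 2) at 0 min and 1027 ± 37.2 at 30 min, and its distance from the typical member was within 0.14 at each time. RPSA, the laminin receptor precursor on the small subunit's solvent face, averaged 1447 ± 175 and 390 ± 5.15 CPM at those times and fell by 1.53, 1.69 and 1.89 at 5, 15 and 30 min. RPS27A, made as a fusion with ubiquitin, averaged 1904 ± 177 and 569 ± 26.2 CPM and fell by 1.40, 1.29 and 1.74. It stood above the typical member by 0.12, 0.24 and 0.27 at 5, 15 and 30 min. None of these 3 differed from the typical member by the test at any of the 3 times.

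**Figure D4:**
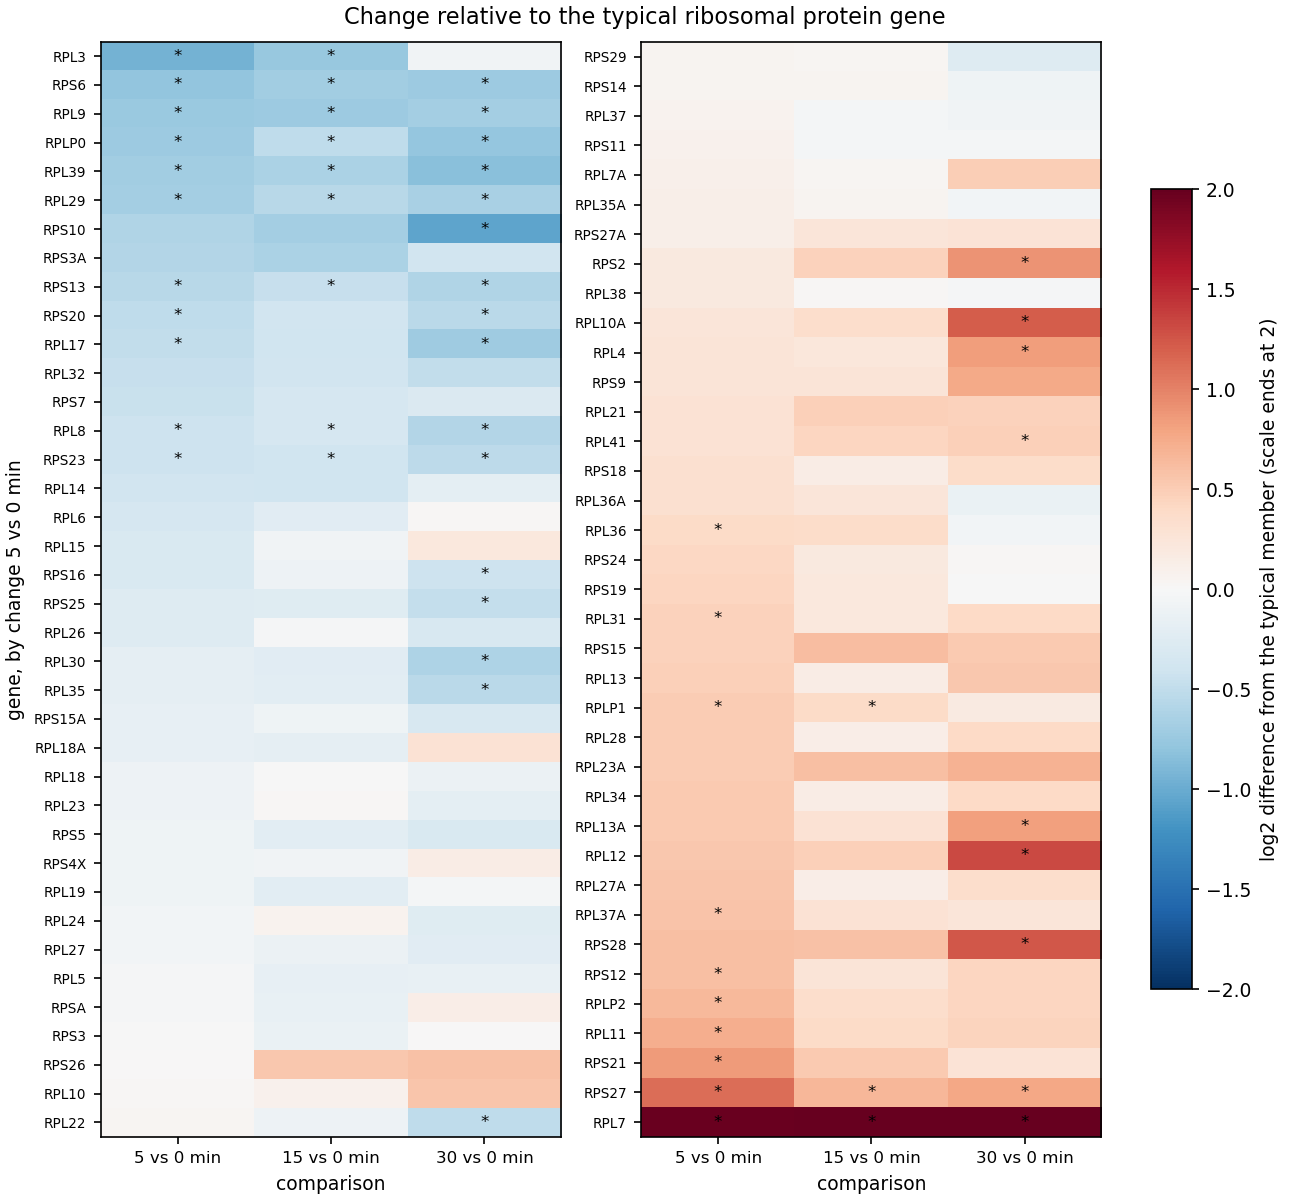
Log2 change of 75 of the 76 genes relative to the typical ribosomal protein gene (colour, ending at 2 on either side; RPL7 passes that limit at 15 and 30 min) in the comparisons of 5, 15 and 30 min with 0 min, ordered by the first. Stars mark an adjusted p under 0.001; RPS6 and RPLP0 stayed low throughout, RPL3 returned to the middle at 30 min, and RPL10A, RPL12 and RPS28 stood high at 30 min.

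Features outside the counts were set beside these changes as descriptions. A tract, taken as C or T at the RefSeq start followed by at least 4 more, was present in 42 of the 62 members with an entry in the promoter table (67.7%), against 5.22% of all 27305 promoters of the same length. A run of at least 5 pyrimidines that began within 5 bases of the start was present in 53 of the 62 (85.5%), against 30% of all promoters. The 20 without a tract at the start itself thus include members with a run close by. Between 5 and 30 min the 42 had a median log2 fold change of -0.62, with 23 lower by the test. The 20 without had -0.34, with 4 lower, and 6.52% of all genes were lower. At 5 min against 0 min the medians were -1.36 with and -1.54 without the tract, the other way round. In the 29 members with a snoRNA gene inside them the median between 5 and 30 min was -0.49, and in the 47 others it was -0.61. Across the 76 members, the level at 0 min, from cultures that the comparison does not use, and the change from 5 to 30 min had a Spearman's rho of -0.51. The points share the same libraries, and the levels are not corrected for length. Whether the tract, the level or the hosted snoRNA bears on the change was not tested.

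The other genes of the ribosome and its supply moved in the same direction in most lists. Of 9 tested genes for ribosomal or ribosome-bound proteins outside the symbol rule, 7 fell and 0 rose at 5 min, against 26.0% of all genes lower and 28.7% higher. GNB2L1, which encodes the small subunit scaffold RACK1, went from 9698 ± 843 CPM (SD, n = 2) at 0 min to 1453 ± 67.5 at 30 min (log2 fold change -2.74, adjusted p = 6.29e-13). RPL22L1, the paralogue of RPL22, was chosen after its values were seen: it fell by 1.32 at 5 min and rose by 1.12 between 5 and 30 min (adjusted p = 1.61e-07 and 4.47e-05), while RPL22 fell between those times.

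Of 71 mitochondrial ribosomal protein genes tested, 62 fell and 2 rose at 5 min, with a median of -1.41. The shares of all genes called at 5 min, 26.0% lower and 28.7% higher, are the background for this list and the 3 that follow. MRPL51 and MRPL13, the most counted, stood at -2.12 and -1.49 at 30 min (adjusted p = 1.38e-11 and 1.06e-08). Of 19 other genes known for TOP mRNAs, most of them for translation factors, 14 fell and 1 rose at 5 min, with TPT1 at -2.61 and NAP1L1 at -1.83 (adjusted p = 3.38e-11 and 3.43e-10). Of 37 ribosome assembly genes, 20 fell and 5 rose, with the nucleolar chaperone NPM1 at -2.33 and the snoRNP protein NHP2 at -2.04 (adjusted p = 2.88e-11 and 5.95e-11). Of 14 regulators of TOP mRNAs and ribosome quality, 1 fell and 7 rose: CNBP, which binds these tracts, was the one that fell (-2.41, adjusted p = 3.31e-12), and HBS1L, which rescues stalled ribosomes, rose by 0.90 (adjusted p = 0.000156). The medians of these lists at 5 min were -1.24 outside the symbol rule, -1.19 for TOP mRNA genes, -0.85 for assembly and 0.68 for regulators, beside 0.10 over all genes and -1.48 over the ribosomal protein genes.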

How the data were processed

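Gene counts of 32 libraries were analysed. The counts that the authors deposited are whole numbers, not normalized, for 32738 gene entries. The submitters' processing notes name STAR and hg19. The strand of counting, the treatment of reads that map to several places and whether reads or molecules were counted are not stated. Each culture's 4 libraries were added up, which left 8 samples. With 2 cultures a time no exact permutation test of 1 time against another can reach 0.05, so edgeR 4.0.16 (R 4.3.3) was used. Its quasi-likelihood F test was two-sided, with TMM scaling and genes kept by filterByExpr (10439, all 76 members among them). There was 1 fit over all cultures with time as the only term, and Benjamini-Hochberg adjustment over all genes at 0.05. A second fit took its library sizes from the median of ratios over the members. The scripts were tested on simulated data.

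Every member could be named; per-culture values were given for members outside 1.5 interquartile ranges, for the 3 most counted of each subunit, for members against the common direction and for a few of the largest and smallest changes, and the 2 most counted genes of each comparison list were named, except for items that are not reported here. The members and lists were chosen with earlier results of these data known. Culture numbers were not taken as pairs. Deviations of same-numbered cultures correlated at -0.0324 to 0.0809 over genes and at -0.257 to 0.21 over the members. Sampling noise lowers such correlations, so they cannot exclude a pairing. Alternatives were RLE or total-count scaling, no filter on low counts, DESeq2 1.42.0, a replicate block, 1 library per cDNA, fewer times in the fit and leaving out each culture. Promoter sequences, with their GRCh38.p14 coordinates, and pseudogene and snoRNA names are RefSeq's, and 62 of 76 members had a promoter entry. For 4 libraries of the second culture at 0 min the tagmentation number differs between header and labels, with no effect on the sums.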

Additional observations from a re-analysis of the deposited data

How the results depend on the processing

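With 2 cultures a time, the counts of members lower than at 0 min stayed within 1.5 times of those given under each alternative run, and the counts of the later steps did not. Members lower between 15 and 30 min numbered 30 with RLE scaling, 28 with no filter and 39 with DESeq2, and 0 to 38 leaving out single cultures. Members lower between 5 and 30 min numbered 3 to 46 leaving out single cultures, and members higher 1 with total counts, 1 with only those times fitted and 0 to 1 leaving out cultures. With total counts 1 member was higher at 5 min, and leaving out cultures gave 0 to 1 higher at 30 min. Among 16 named members, signs reversed with total counts for RPS27 (0.35) and RPS21 (0.069) at 5 min. They also reversed for RPL10A (0.084) and RPL12 (0.19) at 30 min. Without the 5 most counted members the shares were 14.6%, 8.40%, 8.21% and 6.10% and the log2 subunit ratios 0.38, 0.51, 0.48 and 0.51 at 0, 5, 15 and 30 min. At an adjusted p under 0.001, chosen after seeing the data, 21, 12, 25 and 1 members stood apart from the typical one at 5, 15 and 30 min against 0 and at 30 against 5 min. At the threshold of 0.05, where 27 stood apart at 15 min and 16 between 5 and 30 min, leaving out single cultures gave 17 to 32 and 2 to 16. With a replicate block, members lower numbered 74, 75 and 75 against 0 min, 17 between 15 and 30 min and 32 between 5 and 30 min. Of 960 values of 16 named members over 15 alternatives, 900 kept their direction and side of the threshold. The cause of these shifts was not tested.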
